A study of Mus musculus with 33 samples.

Results

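The genes encoding the proteins of the cytosolic ribosome were followed on 33 arrays, each of 1 mouse blastocyst on a (C57BL/6NxDBA/2)F1 background. A gene was a member if the array's own gene name was Rpl or Rps with a number, Rplp0, Rplp1, Rplp2 or Rpsa, leaving out the Rps6k kinases, pseudogenes and Rps19bp1, which only binds a ribosomal protein. The rule found 81 genes on 135 probes, of which 79 genes on 127 probes passed the filters, out of 15794 genes tested. The 79 encode 44 proteins of the large subunit, 32 of the small subunit and the 3 proteins of the stalk.

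Cloned embryos carried a somatic nucleus in an enucleated oocyte, and the controls were blastocysts from in vitro fertilisation (IVF). Nuclei came from adult male Purkinje neurons (n = 4), adult male CA1 pyramidal neurons of the hippocampus (n = 4), neonatal Sertoli cells of the testis (n = 4), adult female Purkinje neurons (n = 4), adult female CA1 neurons (n = 4) and adult cumulus cells (n = 3), and there were 7 male and 3 female IVF blastocysts. Every clone, and no IVF embryo by its label, had received 50 nM trichostatin A, which blocks histone deacetylases. The drug was present for 1 h while the oocyte was activated, then together with cytochalasin B for 5 h and alone for 2 h, and embryos were collected after 96 h in culture. Cloning and trichostatin A therefore cannot be told apart. The arrays of IVF embryos and cumulus clones had been made for a previous paper of the laboratory, per the series' design text, and were read on another scanner with other software than the remaining 20 arrays, so the comparisons of Purkinje, CA1 and Sertoli clones with IVF also compare 2 sets of arrays. The cumulus comparison lies within the earlier set, and the comparisons of Purkinje, CA1 and Sertoli clones with each other lie within the present set, although each clone group had a slide of its own. The Purkinje slides of both sexes shared a scan day, as did both CA1 slides, and the Sertoli slide had its own. Scan day and nuclear source therefore cannot be told apart, in either sex. The cumulus slide and the slide of the female IVF blastocysts were also scanned on different days. In that comparison slide and scan day cannot be told apart from cloning.

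A ribosome joins a small subunit, which reads the messenger RNA, with a large subunit, which forms the peptide bonds, and a flexible stalk on the large subunit recruits translation factors. Ribosomal protein messages are among the most abundant of a cell, and most begin with a run of pyrimidines, the 5′ terminal oligopyrimidine (TOP) tract, through which mTOR signalling controls their translation together. The preimplantation embryo builds up ribosomes from its own genome in the cleavage stages that lead to the blastocyst.

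The starts of 4 members described below are shown because they differ in the length of the pyrimidine run near the annotated start and in where it lies. Each line gives 40 bases before the annotated start site and the first 20 transcribed bases, 5′ to 3′ on the gene's strand, from RefSeq's GRCm38.p6, and capitals mark the longest run of C and T that lies near the start. Rps9 is at chr7:3704001-3704060 on the plus strand, Rpl28 at chr7:4792925-4792984 on the plus strand, Rpl7a at chr2:26910767-26910826 on the plus strand and Rps4x at chrX:102189372-102189431 on the minus strand.
Rps9: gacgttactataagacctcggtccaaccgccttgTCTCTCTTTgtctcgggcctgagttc
Rpl28: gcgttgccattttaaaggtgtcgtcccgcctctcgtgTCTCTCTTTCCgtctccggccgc
Rpl7a: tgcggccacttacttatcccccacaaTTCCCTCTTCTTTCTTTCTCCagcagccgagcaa
Rps4x: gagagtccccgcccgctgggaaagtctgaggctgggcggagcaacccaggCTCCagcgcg
The run was 9 bases long in Rps9, of which 3 were transcribed, 11 in Rpl28, of which 8 were transcribed, and 21 in Rpl7a, of which 7 were transcribed. In Rps4x it was 4 bases long and began at transcribed base 11. These windows show letters around the annotated start, and where transcription began in these embryos was not measured. In the window from 15 bases before to 20 bases after the start, 27 of the 60 members in the reference table (45.0%) held at least 8 C or T in a row on the sense strand, against 15.7% of 27018 genes. The letters CTTTC stood on the sense strand of that window in 16 members (26.7%), against 5.5% of all genes, and on the other strand in 3 members (5.0%), against 5.0%. A match describes these letters only, and the 2 motifs overlap.

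Values are log2 of the processed signal relative to the 75th percentile of the signals on the same array, so 0 is the 75th percentile and each unit is a doubling. The brightest probe stood for a gene. Differences are first group minus second, with their standard error (SE), and adjusted p-values are from limma fitted to all genes, with a gene called at an adjusted p under 0.05. Because these probes were very bright, the counts of called members are also given after quantile normalization, which gives every array the same distribution of signals. Of the 79 members, 78 were well above background on all 33 arrays and none was saturated. Of the untested members, Rpl3l, the muscle form of Rpl3, was at the floor of -3.43 on 32 arrays and at -2.94 on Sertoli replicate 3. Rpl13a, a large-subunit protein, was left out because its spots were marked as outliers on 6 of 7 male and 2 of 3 female IVF arrays.

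The Purkinje arrays stood apart before any gene was compared. Their 75th percentiles were 229.7 to 659.1 in male and 353.8 to 838.0 in female clones, against 904.3 to 1465.6 in the other groups. Markers of trophectoderm (10 of 10), of inner cell mass (5 of 5 with a probe) and of primitive endoderm (4 of 6), the lineages of the blastocyst, were well above background on all arrays. The summed signal of the trophectoderm markers took 0.611% to 0.873% of all gene signal in male IVF blastocysts, 0.551% to 0.712% in male Purkinje, 0.535% to 0.581% in male CA1 and 0.433% to 0.514% in Sertoli clones. It took 0.590% to 0.690% in female IVF blastocysts, 0.581% to 0.663% in female Purkinje, 0.473% to 0.50% in female CA1 and 0.596% to 0.610% in cumulus clones. The inner cell mass markers took 0.039% to 0.047% in male IVF, 0.056% to 0.077% in male Purkinje, 0.048% to 0.056% in male CA1 and 0.039% to 0.071% in Sertoli embryos. They took 0.039% to 0.052% in female IVF, 0.052% to 0.084% in female Purkinje, 0.030% to 0.052% in female CA1 and 0.061% to 0.075% in cumulus embryos. Primitive endoderm markers took 0.084% to 0.169% in male IVF, 0.120% to 0.147% in male Purkinje and 0.089% to 0.114% in male CA1 embryos. In Sertoli embryos they took 0.098% to 0.132%, and in female IVF embryos 0.130% to 0.165%. Their share was 0.084% to 0.132% in female Purkinje, 0.110% to 0.136% in female CA1 and 0.108% to 0.141% in cumulus embryos. The trophectoderm markers did not move together. From male IVF to male Purkinje embryos the mean level of Krt7 went from 4.21 to 2.06 and that of Cldn4 from 1.66 to 0.22. That of Cdx2 went from 6.16 to 6.62 and that of Tfap2c from 4.64 to 5.83. The brightest, Krt8 and Krt18, averaged 8.73 and 8.65 in male IVF embryos and weigh most in the sum. The inner cell mass markers did not move together either. From male IVF to male Purkinje embryos the mean level of Zfp42 went from 5.10 to 6.78. That of Pou5f1 went from 4.31 to 3.78 and that of Tdgf1 from 1.68 to 0.34. Neither did those of primitive endoderm. Sox17 averaged 3.55 in male IVF, 3.29 in male Purkinje, 2.01 in male CA1 and 1.45 in Sertoli embryos. Sox7 averaged -0.01, -2.85, -3.43 and -2.46 in the same order, whereas Gata6 averaged 5.54, 6.31, 5.72 and 6.27. In female IVF, Purkinje, CA1 and cumulus embryos Sox17 averaged 3.86, 2.3, 1.21 and 2.83, and Gata6 5.94, 6.33, 6.5 and 5.84. The part of these lineage shares in the ribosomal protein results was not tested, and fewer cells of a type cannot be told apart from less RNA per cell. Of the donor cells' markers, Calb1, Pvalb, Neurod6, Fibcd1 and Wt1 were not well above background on any array.

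Averaged over the 79 genes, all male clone groups had a mean within the range of the male IVF blastocysts. The list mean was 6.53 ± 0.28 (SD, n = 7) in male IVF blastocysts, from 6.15 to 6.87, and 6.32 ± 0.08 (n = 3) in female ones. It was 6.77 ± 0.19 and 6.82 ± 0.15 in male and female Purkinje clones, 6.45 ± 0.10 and 6.31 ± 0.27 in male and female CA1 clones and 6.29 ± 0.20 in Sertoli clones (n = 4 each), and 5.93 ± 0.10 in cumulus clones (n = 3). The female Purkinje clones, from 6.69 to 7.04, all lay above the female IVF blastocysts, and the cumulus clones, from 5.84 to 6.04, all lay below them. After quantile normalization the means were 6.62 in male IVF, 6.42 in male Purkinje, 6.51 in female IVF and 6.45 in female Purkinje embryos, so the Purkinje groups moved from above to below their controls. The cumulus clones stayed lowest, at 6.11 ± 0.02.

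**Figure D1:**
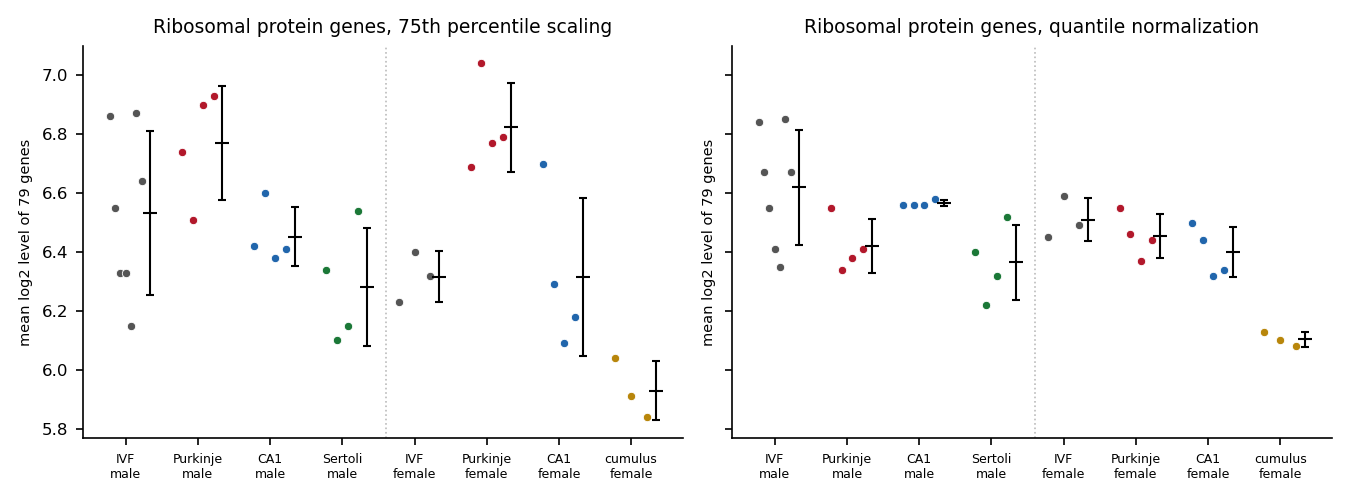
Mean log2 level of the 79 ribosomal protein genes on each array (points) by group, with the group mean and SD (bars), after scaling to the 75th percentile (left) and after quantile normalization (right). Purkinje clones averaged 6.77 and 6.82 on the left, above IVF, and 6.42 and 6.45 on the right, below IVF, while cumulus clones were lowest on both sides.

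In male Purkinje clones, 31 of 79 members were higher and 5 lower than in male IVF blastocysts, against 18.3% and 10.3% of all genes, with a median change of 0.34 against 0.07 over all genes. After quantile normalization 5 members were higher and 17 lower, against 11.8% and 13.4% of all genes, with a median of -0.12. The direction of the list therefore depended on the scaling, while 5 members rose and 5 fell under both. Without the 5 Purkinje arrays (both sexes) with a 75th percentile under 500, 6 members were higher and 1 lower, with only male replicates 1 and 2 left. Without male Purkinje replicate 4 alone, 20 were higher. Smaller groups also give fewer calls, and the share of all genes was not counted in these fits. By subunit, 16 large-subunit, 14 small-subunit and 1 stalk member were higher, and 1, 3 and 1 were lower.

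The 5 that rose under both scalings were Rps23, Rps27a, Rpl7a, Rps13 and Rpl30. Rps23, a protein of the decoding centre, read 8.57, 8.37, 9.10 and 8.99 in male Purkinje clones against 7.0 to 8.02 in the 6 male IVF arrays with a value, with a median of 7.85. All 4 clones lay above all controls on this scale, and the difference was 1.14 (SE 0.20, adjusted p = 0.0001895) and 0.49 after quantile normalization (adjusted p = 0.0383). The groups overlapped after quantile normalization, with clones at 8.31, 8.05, 8.28 and 8.13. Male IVF replicates 6 and 7, which shared a slide, read 7.03 and 7.11, and the other controls ran from 7.80 to 8.14. Rps27a, which is made as a fusion with ubiquitin, read 8.23, 8.30, 9.28 and 9.43 against 7.46 to 8.20, with a median of 7.64. Its groups did not overlap, and it differed by 1.13 (SE 0.22, adjusted p = 0.0004706). Rpl7a, a large-subunit protein with the longest pyrimidine run of the 4 starts printed above, read 8.67, 8.37, 9.10 and 9.32 against 7.44 to 8.25, with a median of 7.71. Again no clone overlapped a control, and Rpl7a differed by 1.01 (SE 0.19, adjusted p = 0.000329) and by 0.39 after quantile normalization (adjusted p = 0.01175). Rpl30 differed by 0.94 (adjusted p = 0.001294). Rps13 differed by 0.94 with its bright probe (adjusted p = 0.0002468), but its second and much dimmer probe differed by -1.04, and Rps13 was not called when its probes were averaged.

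The 5 that fell in male Purkinje clones were lower under both scalings as well. Rps9, a small-subunit protein near the entry of the mRNA channel, read 3.88, 3.43, 4.03 and 4.06 against 3.99 to 5.18 in male IVF blastocysts, with a median of 4.76. The groups overlapped at their edges, and the difference was -0.80 (SE 0.22, adjusted p = 0.007256). Rpl21 differed by -1.08 (adjusted p = 0.008982), Rps15 by -1.01 (adjusted p = 0.03624) and Rps14 by -0.78 (adjusted p = 0.01758). The probe named Rplp0, for the protein at the base of the stalk, differed by -0.94 (adjusted p = 0.01137), but 2 brighter probes of the same gene under its former name Arbp gave 0.46 and -0.58. Rpl21 was likewise uncertain, since its dimmer second probe gave 0.16, and its male IVF arrays ran from -1.40 to 0.97.

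Female Purkinje clones had 31 members higher and 0 lower than female IVF blastocysts, against 13.0% and 6.67% of all genes, and a median of 0.53 against 0.08. At an unadjusted p under 0.05 in limma, 42 were higher and 0 lower. The share of all genes at that threshold was not counted, here or below, so such counts do not set the members apart from other genes. After quantile normalization 3 members were higher and 1 lower, against 7.47% and 8.79%, with a median of -0.05. The 3 were Rpl7a, Rpl30 and Rps13. Rpl7a read 8.55, 9.32, 8.99 and 9.02 in the clones and 7.74, 7.64 and 7.45 in IVF blastocysts. The groups did not overlap, and the difference was 1.36 (SE 0.23, adjusted p = 0.0002317), the largest of a called member in this comparison. Rpl30, a large-subunit protein, read 6.83, 7.73, 7.52 and 7.60 against 5.61, 6.25 and 6.51 and differed by 1.30 (SE 0.25, adjusted p = 0.0007622). Rps13, a small-subunit protein, differed by 1.22 (SE 0.21, adjusted p = 0.0002972) with its brightest probe but by -0.19 averaged over its probes. Rps19, which is mutated in Diamond-Blackfan anaemia, differed by 1.25 (adjusted p = 0.002622) and by 0.68 after quantile normalization (adjusted p = 0.07616). Without female Purkinje replicate 2, 20 members were higher. Without the Purkinje arrays under 500, 1 female Purkinje array was left and 0 members were higher.

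The same female IVF arrays served the other female comparisons and the same male IVF arrays the other male ones, so counts of the several comparisons are not independent. Tested directly, the Purkinje change did not differ between the sexes for any member: 0 were higher and 0 lower, against 0.0127% and 0.0443% of all genes, with a median difference of 0.25, female minus male. At an unadjusted p under 0.05 in limma, 1 was higher and 0 were lower, counted for members only.

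**Figure D2:**
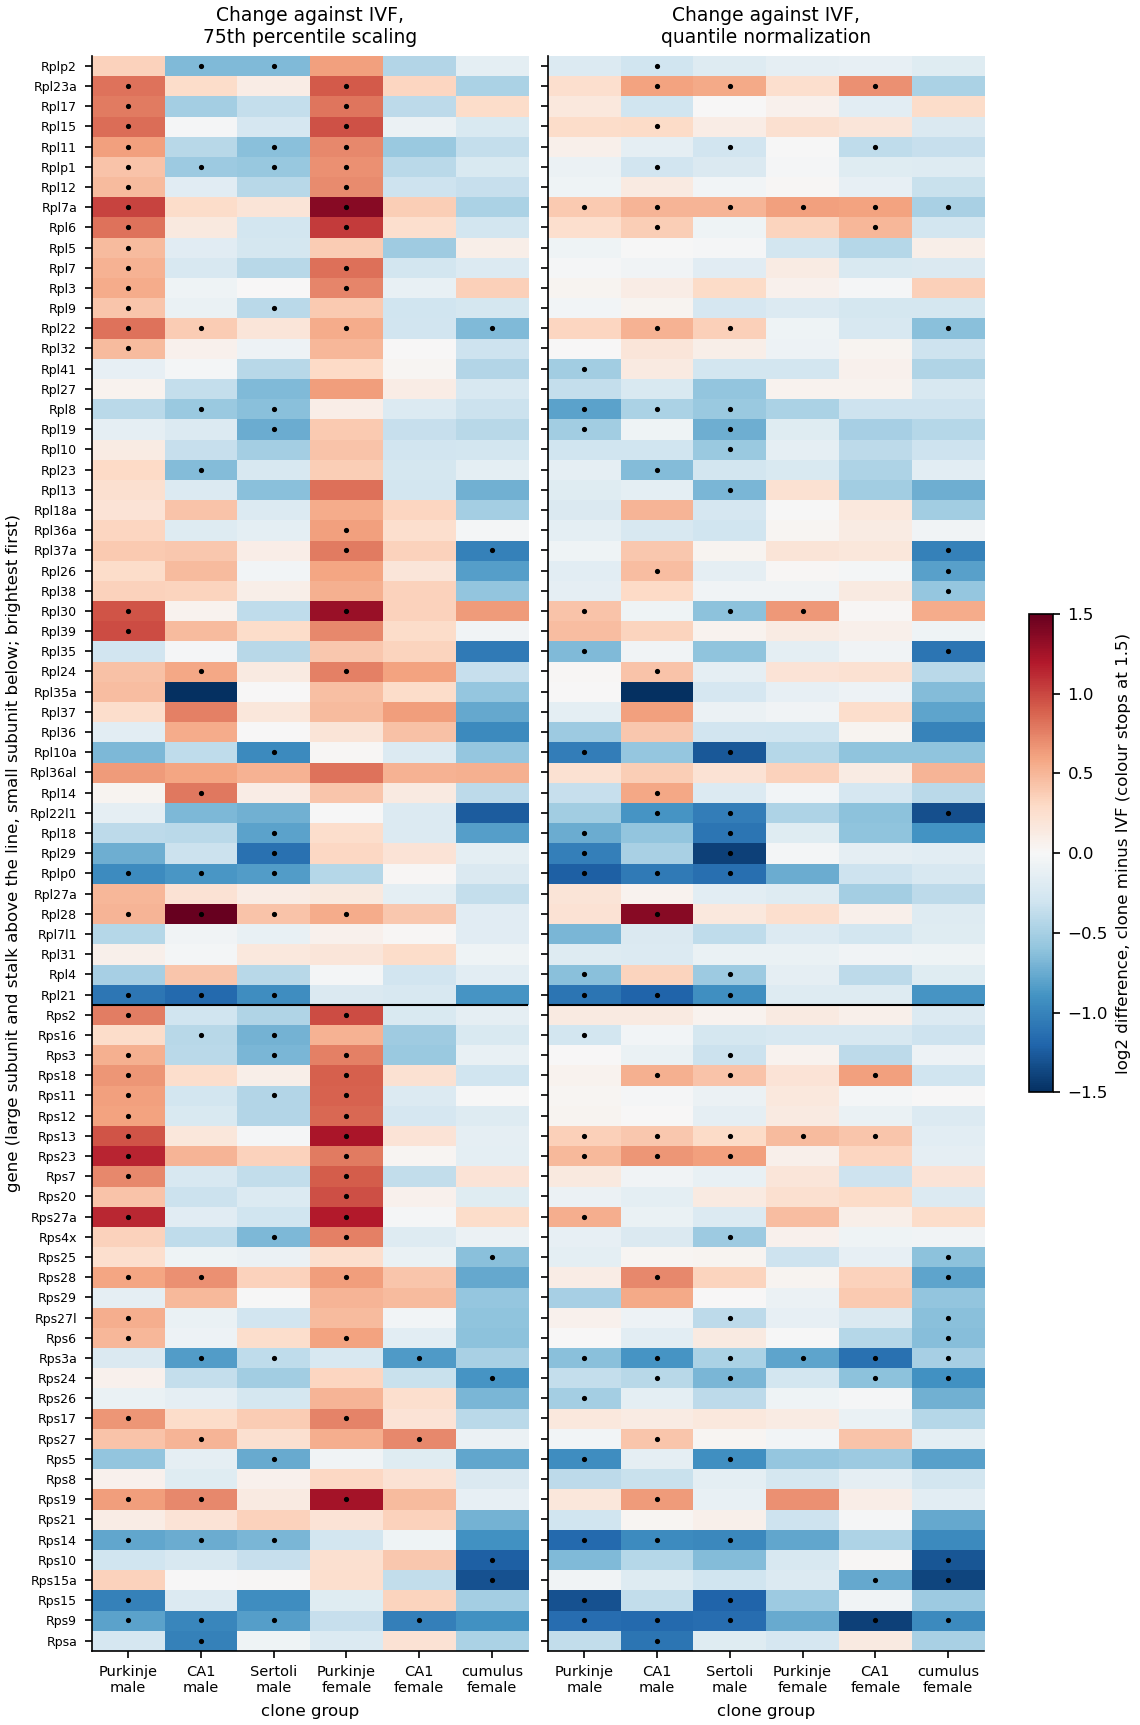
Log2 difference of each of the 79 genes (rows) between each clone group and IVF blastocysts of the same sex (columns), on the 75th percentile scale (left) and after quantile normalization (right), with a dot where limma's adjusted p was under 0.05. The Purkinje columns are mostly red on the left, with 31 members higher in each sex, against 5 and 3 on the right. In males 10 of the 26 dimmest, 6 of the middle 26 and 1 of the 27 brightest members were lower on the right. Rps3a and Rps9 are blue throughout the right panel.

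The higher calls in Purkinje clones gathered among the members with the brightest probes. Of the 27 members with the brightest probes, with mean levels of 7.65 to 8.76, 23 were higher in male Purkinje clones, with a median change of 0.61. Of the 26 dimmest, from -1.01 to 6.17, 2 were higher and 5 lower, with a median of -0.21. In female Purkinje clones 22 of the 27 brightest were higher, with a median of 0.80. After quantile normalization 4 and 2 of these 27 were higher in male and female Purkinje clones, with medians of 0.04 and 0.08. Across the 79 genes, level and change correlated at r = 0.65 (rho = 0.62) in male Purkinje, r = 0.66 (rho = 0.68) in female Purkinje and r = 0.29 (rho = 0.36) in cumulus clones. The other groups gave r = 0.08 (rho = -0.10) in male CA1, r = 0.06 (rho = -0.07) in Sertoli and r = -0.16 (rho = -0.35) in female CA1 clones. After quantile normalization all 6 comparisons gave a positive r, at 0.54 in male Purkinje, 0.47 in Sertoli, 0.36 in female Purkinje, 0.32 in male CA1, 0.30 in cumulus and 0.26 in female CA1 clones, so Purkinje and other clones lay closer together on that scale. These correlations are descriptions across genes of the same arrays, and a probe's brightness depends on the probe as well as on its mRNA.

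**Figure D3:**
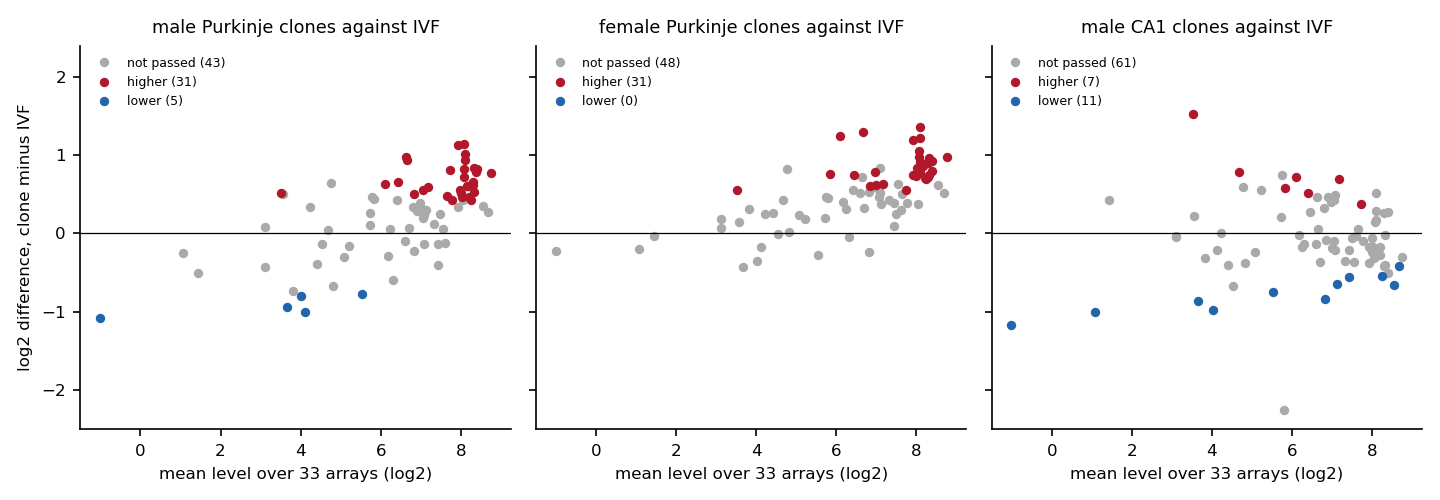
Log2 difference from IVF against the mean log2 level over 33 arrays for each of the 79 genes, in male Purkinje, female Purkinje and male CA1 clones, with called genes in red (higher) and blue (lower). The red points of both Purkinje panels crowd at the bright end, where 23 and 22 of the 27 brightest members were higher, and the male CA1 panel has little slope on this 75th percentile scale (r = 0.08, against 0.32 after quantile normalization).

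Probes of the same gene did not always move alike. Of 38 members with several probes, all probes of a gene changed in the same direction in 20 members in male Purkinje, 22 in male CA1, 22 in Sertoli, 23 in female Purkinje, 27 in female CA1 and 23 in cumulus clones. The brightest Rpl7a probe and a second one differed by 1.01 and 0.84 in male Purkinje clones, while the third and dimmest differed by -0.57. Rack1, a small-subunit protein outside the name rule, had a bright probe that differed by 0.40 and a dimmer probe nearer its 5′ end that differed by -0.58. The bright Arbp-named probe of Rplp0, at 0.46, likewise lay on the 3′ side of the one at -0.58.

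In 30 members with a pair of probes 60 to 5000 bases apart, the median difference of the 5′ probe minus the 3′ probe ran from -0.88 to -0.65 on male IVF arrays and from -0.79 to -0.66 on female ones. It ran from -1.17 to -0.87 on male Purkinje and from -1.16 to -0.97 on female Purkinje arrays. The female groups did not overlap, and in males only 1 IVF array reached the Purkinje range. It lay between -0.85 and -0.80 in male CA1, -1.04 and -0.81 in Sertoli, -0.85 and -0.70 in female CA1 and -0.82 and -0.81 in cumulus clones. The change of the 5′ probe relative to the 3′ probe had a median of -0.29 in male Purkinje clones, with 20 of 30 members below 0, and of -0.34 in female ones, with 19 of 30. Over 1983 genes with such pairs the medians were -0.16 and -0.06, with 59.3% and 54.2% of genes below 0. The other clone groups had like counts of members below 0, at 21 of 30 in female CA1 (median -0.18), 19 in cumulus (-0.21), 17 in male CA1 (-0.13) and 16 in Sertoli clones (-0.02), against 54.7%, 45.4%, 51.1% and 58.0% of all such genes. The lower 5′ signal and the low 75th percentiles moved with the Purkinje groups, and their part in the ribosomal protein changes was not tested.

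**Figure D4:**
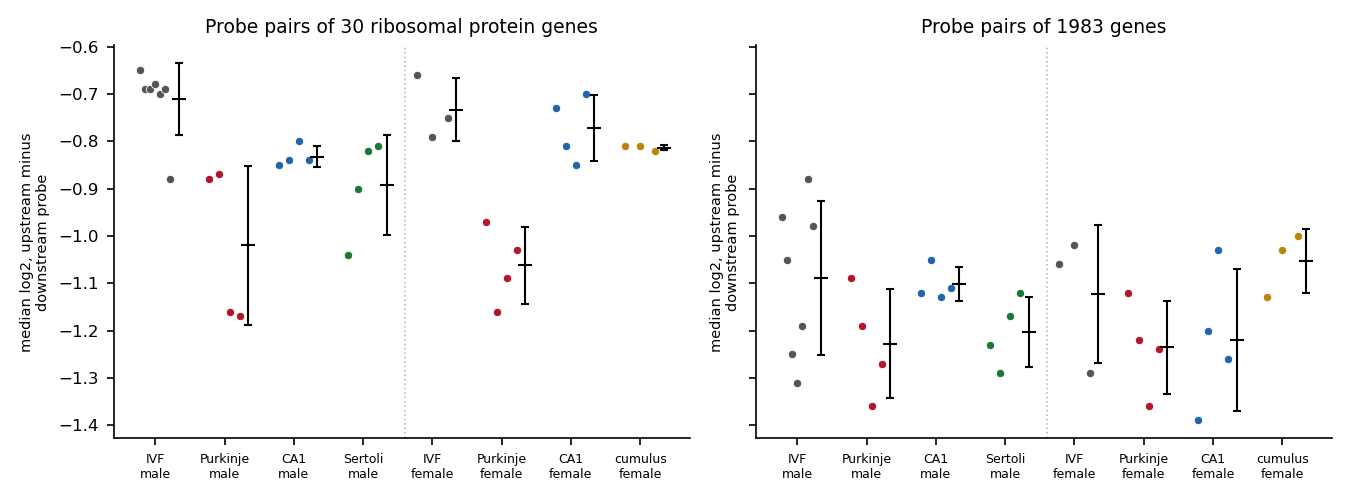
Median over genes of the log2 signal of the 5′ probe minus that of the 3′ probe on each array (points), with the group mean and SD (bars), for 30 ribosomal protein genes (left) and all 1983 genes with such a pair (right). On the left the Purkinje arrays run from -1.17 to -0.87 in males and from -1.16 to -0.97 in females, a range that Sertoli replicates 1 and 2 (-1.04 and -0.90) and male IVF replicate 7 (-0.88) share, and on the right the groups overlap.

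Male CA1 clones changed in a mixed way, with Rpl28 far above the rest. Against male IVF blastocysts 7 members were higher and 11 lower, against 17.7% and 13.3% of all genes, with a median of -0.13 against 0.01. After quantile normalization 15 were higher and 12 lower, against 15.5% and 15.3%, with a median of -0.05. By subunit, 4 large-subunit and 3 small-subunit members were higher, and 3 large-subunit, 5 small-subunit and all 3 stalk members were lower.

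Rpl28, a large-subunit protein that bacterial ribosomes lack, had 1 probe and read 4.71, 4.74, 4.57 and 4.75 in male CA1 clones. Male IVF blastocysts ran from 2.71 to 3.49 with a median of 3.24, and no array of the other 7 groups exceeded 3.94, in Sertoli replicate 4. The difference from IVF was 1.53 (SE 0.14, adjusted p = 6.512e-09), and 1.37 after quantile normalization (adjusted p = 1.623e-08). It was called in all 13 alternatives other than centring on the members' mean, which was not counted. The difference lay between 1.46 and 1.59 with any 1 array left out. Female CA1 clones read 3.63, 3.51, 3.35 and 3.40 against 2.98, 2.93 and 3.31 in female IVF blastocysts, a difference of 0.40 that was not called (adjusted p = 0.1331). The sexes differed in this change by -1.13, female minus male (SE 0.23, adjusted p = 0.008771), and Rpl28 was the 1 member to do so, against 0.488% of all genes higher and 0.589% lower. Within the present set, Rpl28 was 1.10 higher in male CA1 than in Sertoli clones (SE 0.16, adjusted p = 6.221e-05) and 1.02 lower in male Purkinje than in male CA1 clones (log2 difference -1.02, adjusted p = 9.693e-05). It was also higher in male Purkinje (0.51, adjusted p = 0.00875), Sertoli (0.43, adjusted p = 0.02753) and female Purkinje clones (0.56, adjusted p = 0.02412) than in IVF, calls that were lost after quantile normalization.

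The other members that rose in male CA1 clones were Rpl14, Rps19, Rps28, Rpl24, Rps27 and Rpl22, each under both scalings. Rpl14, a large-subunit protein, read 5.49, 5.31, 5.39 and 5.54, above all male IVF blastocysts at 4.32 to 5.11, and differed by 0.79 (SE 0.18, adjusted p = 0.001489). Rps19 differed by 0.72 (adjusted p = 0.01825) and Rps28 by 0.69 (adjusted p = 0.005612). Rpl24 differed by 0.58, Rps27 by 0.51 and Rpl22 by 0.38. Without male CA1 replicate 1 or replicate 4, 4 members in place of 7 were higher.

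All 3 stalk proteins fell in male CA1 clones under both scalings. Rplp1, which pairs with Rplp2 on the stalk, read 7.91, 7.98, 7.81 and 7.79, below the male IVF range of 8.06 to 8.68 with its median of 8.52, and differed by -0.55 (SE 0.14, adjusted p = 0.003593). Rplp2 read 8.14, 8.29, 8.08 and 8.05, below the male IVF range of 8.45 to 8.97, and differed by -0.66 (SE 0.19, adjusted p = 0.01058). The Rplp0 probe differed by -0.87 (adjusted p = 0.01596), and the Arbp-named probes by -0.34 and -0.43.

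Rps3a, a protein of the platform of the small subunit, was the member that fell in CA1 clones of both sexes with probes that moved together. It read 6.57, 6.42, 6.25 and 5.96 in male CA1 clones against 6.90 to 7.30 in male IVF blastocysts, with a median of 7.20. Female CA1 clones read 6.63, 6.45, 6.22 and 6.16 against 7.19, 7.25 and 7.21, so neither pair of groups overlapped. The differences were -0.84 (SE 0.13, adjusted p = 1.384e-05) and -0.85 (SE 0.16, adjusted p = 0.0006085), and its second probe gave -1.19 and -0.91. Sertoli clones, at 6.90, 6.50, 6.66 and 6.99, differed by -0.38 (adjusted p = 0.02994). In male Purkinje, female Purkinje and cumulus clones Rps3a differed by -0.22, -0.24 and -0.49 (adjusted p = 0.1999, 0.2891 and 0.08169), and both probes were below 0 in all 6 comparisons. After quantile normalization Rps3a was called lower in all 6. It was 0.61 higher in male Purkinje than in male CA1 clones (adjusted p = 0.00414) and 0.61 higher in female Purkinje than in female CA1 clones (adjusted p = 0.007073), within the present set, but 0.26 and 0.33 after quantile normalization (adjusted p = 0.1855 and 0.1139).

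Rps9 was lower in 4 of the 6 comparisons with IVF, the 4 that were called. In male CA1 clones it read 3.97, 3.60, 3.76 and 3.34, below every male IVF blastocyst, and differed by -0.98 (SE 0.22, adjusted p = 0.001114). In Sertoli clones it read 3.77, 3.43, 3.76 and 4.31, overlapping the controls, and differed by -0.83 (adjusted p = 0.006125). Female CA1 clones, at 3.36, 3.63, 3.38 and 3.50, lay below the female IVF values of 4.11, 4.90 and 4.45 and differed by -1.02 (SE 0.27, adjusted p = 0.01142). Female Purkinje clones, at 4.02, 4.28, 4.15 and 4.13, differed by -0.35 (adjusted p = 0.4002), and cumulus clones, at 3.43, 3.48 and 3.82, by -0.91 (adjusted p = 0.05845). Rps9 had 1 probe, and its call held under the same 13 alternatives in male Purkinje and in male CA1 clones.

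**Figure D5:**
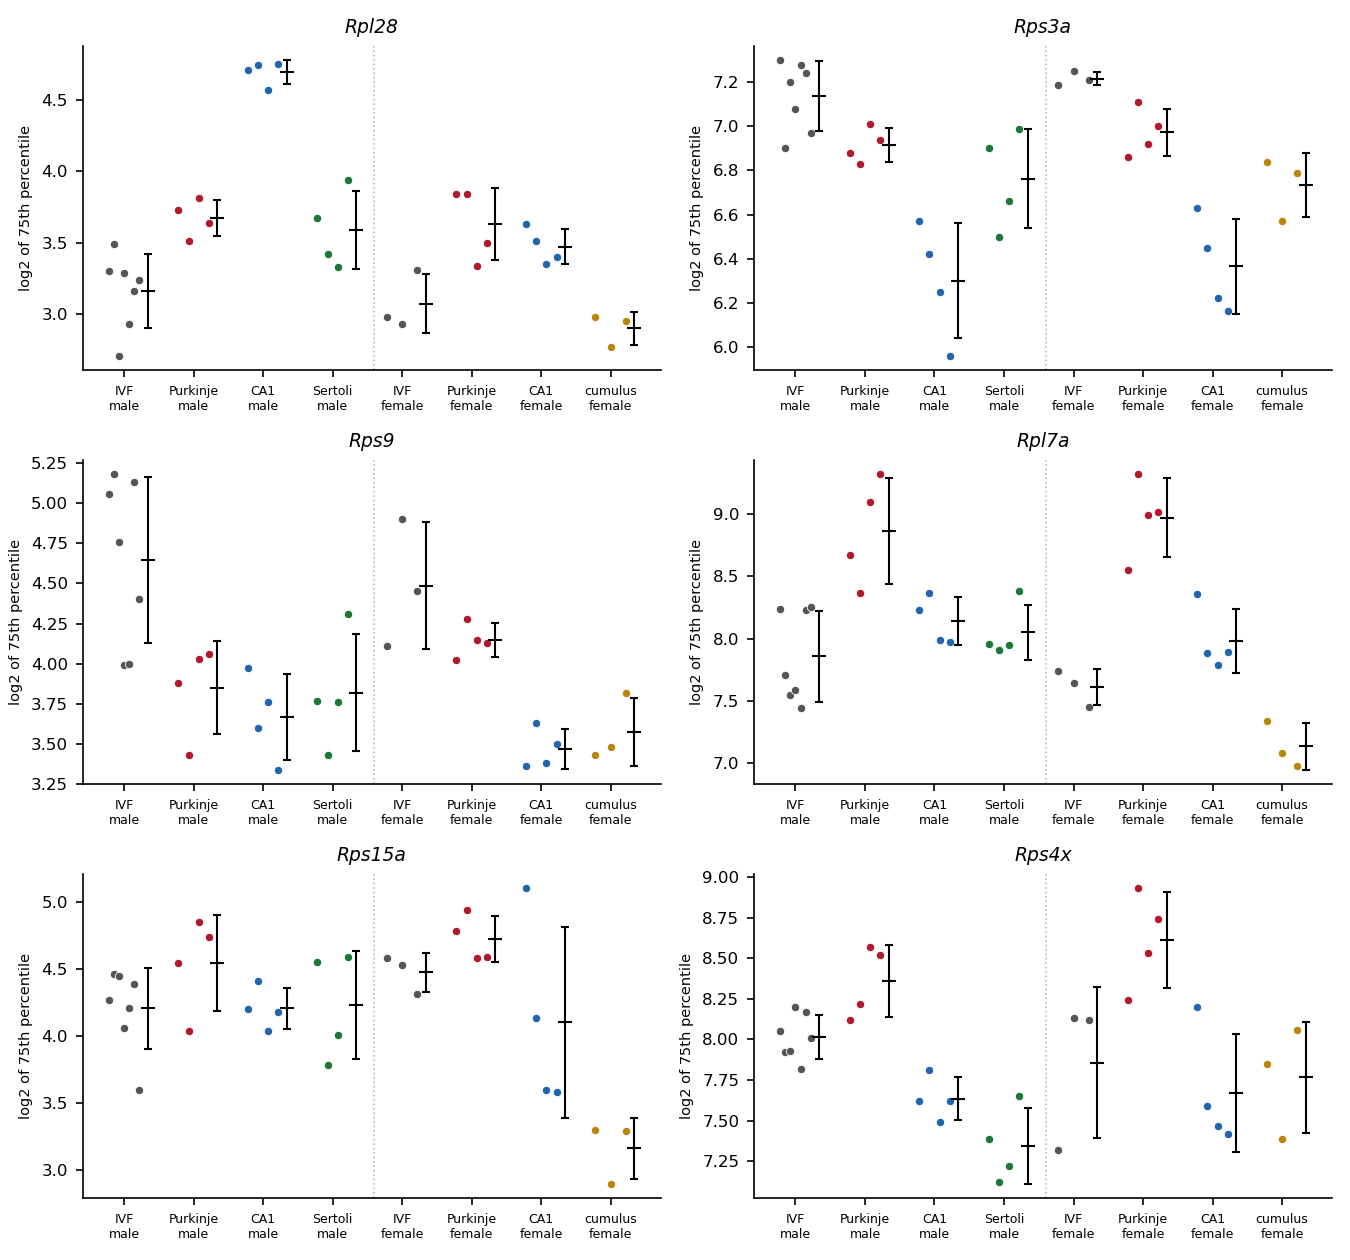
Log2 level relative to the 75th percentile on each array (points) by group, with group mean and SD (bars), for Rpl28, Rps3a, Rps9, Rpl7a, Rps15a and Rps4x; each panel has its own axis. The 4 male CA1 clones stand alone for Rpl28, from 4.57 to 4.75, the CA1 clones of both sexes are lowest for Rps3a, and the cumulus clones are lowest for Rps15a, from 2.90 to 3.30.

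Further members fell in male CA1 clones. Rpsa, known both as a small-subunit protein and as the laminin receptor, read 0.46, 0.95, 0.06 and 0.09 against 0.68 to 2.25 in male IVF blastocysts, overlapping them, and differed by -1.01 (adjusted p = 0.00334). Its dimmer probe gave 0.72. Rpl21 differed by -1.17 (adjusted p = 0.004434), Rps14 by -0.75 (adjusted p = 0.01978) and Rpl8 by -0.56 (adjusted p = 0.03514). Rpl23, which can bind the p53 regulator Mdm2, differed by -0.65 (adjusted p = 0.01021), and its groups did not overlap. Rps16 differed by -0.42 (adjusted p = 0.03731) and was not called after quantile normalization. Without male CA1 replicate 4, 7 members in place of 11 were lower.

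In Sertoli clones the called members were nearly all lower: 19 fell and 1, Rpl28, rose, against 10.8% and 15.0% of all genes, with a median of -0.26 against 0.00. After quantile normalization 22 were lower and 6 higher, against 13.0% and 11.2%, with a median of -0.19. The 19 were 8 large-subunit, 8 small-subunit and all 3 stalk members. Without Sertoli replicate 2 or male IVF replicate 6, 11 or 12 members were lower.

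Rps3, a protein at the mRNA entry site that also takes part in DNA repair, read 7.77, 7.70, 7.56 and 8.13 in Sertoli clones, below all male IVF blastocysts at 8.22 to 8.69, and differed by -0.68 (SE 0.16, adjusted p = 0.002476). Rpl11, which with Rpl5 and 5S RNA forms a particle that binds Mdm2, read 7.82, 7.70, 7.67 and 8.0, below the IVF range of 8.14 to 8.73, and differed by -0.63 (SE 0.17, adjusted p = 0.007744). Both fell under either scaling. Among called members the largest falls were those of Rpl29 (-1.12, adjusted p = 0.01032), Rpl10a (-0.96, adjusted p = 0.007946), Rpl21 (-0.93, adjusted p = 0.02543) and the Rplp0 probe (-0.84, adjusted p = 0.02444). Rpl29, a large-subunit protein, read 3.32, 2.95, 3.31 and 3.84 against 3.32 to 5.53, and Rpl10a read 4.50, 4.18, 4.32 and 4.85 against 4.41 to 6.24. Both overlapped the wide male IVF group. Rps15 differed by -0.93 as well but was not called (adjusted p = 0.05994), and was called after quantile normalization (-1.20, adjusted p = 0.01505). The 2 Arbp-named probes of Rplp0 were below 0 here too, at -0.62 and -0.79.

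Few members changed in female CA1 clones: 1 was higher and 2 were lower, against 8.41% and 4.88% of all genes, with a median of 0.01 against 0.07. The 1 was Rps27, a zinc-finger protein of the small subunit, at 0.72 (adjusted p = 0.0327, and 0.1589 after quantile normalization), and the 2 were Rps3a and Rps9. After quantile normalization 5 were higher and 5 lower, against 5.02% and 6.65%, with a median of -0.08. The change in CA1 clones was tested between the sexes, and Rpl28 alone passed.

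Cumulus clones had 6 members lower and 0 higher than female IVF blastocysts, against 3.36% and 1.95% of all genes, with a median of -0.34 against -0.02. At an unadjusted p under 0.05 in limma, 24 were lower and 1 higher, counted for members only. After quantile normalization 16 were lower and 0 higher, against 4.58% and 2.51%, with a median of -0.33. Rps15a, a small-subunit protein, read 3.30, 2.90 and 3.29 against 4.58, 4.53 and 4.31, without overlap, and differed by -1.31 (SE 0.30, adjusted p = 0.01105). Rps10, another small-subunit protein, read 3.64, 3.79 and 3.82 against 4.85, 5.30 and 4.75 and differed by -1.22 (adjusted p = 0.0481). Rpl37a differed by -1.01 (adjusted p = 0.0335), Rps24 by -0.89 (adjusted p = 0.04161), Rpl22 by -0.66 (adjusted p = 0.03733) and Rps25 by -0.63 (adjusted p = 0.04688), all without overlap. Rps24 gave 0.04 averaged over its probes. In place of 6, 0 to 3 members were lower with any 1 of the 6 arrays left out.

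No member differed between male and female IVF blastocysts under either scaling. The counts were 0 higher and 0 lower, against 0.114% and 0.323% of all genes, and 0 and 0 after quantile normalization, against 0.152% and 0.450%. At an unadjusted p under 0.05 in limma, 11 were higher and 1 lower in males, counted for members only. The median difference, male minus female, was 0.23, and 0.08 after quantile normalization. On the 1 slide that held both sexes, male IVF replicate 5 differed from the mean of the 3 female blastocysts by a median of -0.17.

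Within the present set, clone groups could be compared on 1 scanner and software. Male Purkinje clones had 29 members higher and 3 lower than male CA1 clones, against 10.9% and 7.59% of all genes, with a median of 0.40, and 4 higher and 11 lower after quantile normalization, against 7.88% and 9.09%, with a median of -0.12. The 4 higher under both were Rps27a (1.30, adjusted p = 0.0008456), Rpl17 (1.28, adjusted p = 0.000272), Rpl23 (0.95) and Rpl30 (0.89). Rpl14 (-0.75), Rpl4 (-0.91) and Rpl28 were lower under both. Rpl4, which lines the peptide exit tunnel, read 1.21, 1.14, 1.20 and 1.28 in male Purkinje clones and 2.02, 2.05, 1.84 and 2.55 in male CA1 clones, without overlap. Against Sertoli clones, male Purkinje clones had 26 members higher and 0 lower, against 3.36% and 1.42% of all genes, and 3 higher and 0 lower after quantile normalization, against 2.17% and 1.43%. At an unadjusted p under 0.05 in limma on the 75th percentile scale, 38 were higher and 0 lower, and 41 and 0 in female Purkinje against female CA1 clones. These were counted for members only. The 3 were Rps27a (1.43, adjusted p = 0.0009671), Rpl30 (1.31, adjusted p = 0.0009863) and Rpl11 (1.25, adjusted p = 0.0002539).

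Male CA1 clones had 3 members higher than Sertoli clones, namely Rpl28, Rpl4 (0.84, adjusted p = 0.0119) and Rpl14 (0.68, adjusted p = 0.0308), and 2 lower, Rpsa (-0.94, adjusted p = 0.03216) and Rps3a (-0.46, adjusted p = 0.03626). The shares of all genes were 5.51% and 6.32%. After quantile normalization 9 were higher and 2 lower, against 6.36% and 5.72%. Female Purkinje clones had 32 members higher and 0 lower than female CA1 clones, against 6.19% and 4.83% of all genes, with a median of 0.51. After quantile normalization 6 were higher and 2 lower, against 4.46% and 4.42%. Among the 6 were Rps3 (1.31, adjusted p = 6.578e-05), Rpl11 (1.28, adjusted p = 0.0001417) and Rps7 (1.27, adjusted p = 0.0001561). Rps3 read 8.44, 9.24, 9.11 and 9.17 in female Purkinje and 7.74, 7.65, 7.60 and 7.72 in female CA1 clones, and Rpl11 read 8.46, 9.42, 9.13 and 9.05 against 8.21, 7.68, 7.50 and 7.55. Neither gene's groups overlapped. The higher calls of Purkinje clones numbered 29 against male CA1, 26 against Sertoli and 32 against female CA1 clones. Of these, 0, 0 and 0 held under every alternative setting, with centring on the members' mean not counted. Under some setting 12, 10 and 8 changed sign, and 20, 20 and 25 held with any 1 array left out.

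The 4 X-linked members, Rps4x, Rpl39, Rpl36a and Rpl10, are set beside the other X-linked genes. Their median changes were 0.33 in male Purkinje, -0.27 in male CA1, -0.33 in Sertoli, 0.67 in female Purkinje, 0.03 in female CA1 and -0.07 in cumulus clones, against -0.19, -0.55, -0.41, -0.29, -0.40 and -0.41 over the other 436 X-linked genes tested. These medians are descriptions, and no difference between the 2 lists was tested. Rps4x, the X-linked form of Rps4, read 7.39, 7.12, 7.22 and 7.65 in Sertoli clones, below male IVF at 7.82 to 8.20, and differed by -0.67 (SE 0.18, adjusted p = 0.006142). In female Purkinje clones it read 8.24, 8.93, 8.53 and 8.74, above female IVF at 7.32, 8.13 and 8.12, and differed by 0.75 (adjusted p = 0.01433), but by 0.07 after quantile normalization (adjusted p = 0.8616). Rpl39, a small protein of the exit tunnel, read 6.79, 6.63, 7.36 and 7.31 in male Purkinje clones against 5.64 to 6.85 and differed by 0.98 (adjusted p = 0.002057), and by 0.46 after quantile normalization (adjusted p = 0.08073). Rpl36a differed by 0.62 in female Purkinje clones (adjusted p = 0.04651), but by 0.03 after quantile normalization. Rpl10, which joins the large subunit late in its assembly, was not called in any of the 6 comparisons on this scale, its change running from -0.51 to 0.43.

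Paralog pairs were measured side by side where both genes were members by the name rule. Rpl22, an RNA-binding protein of the large subunit, was higher in male Purkinje (0.81, adjusted p = 0.0001539), male CA1 and female Purkinje clones and lower in cumulus clones. After quantile normalization it was called higher in male CA1 (0.52) and Sertoli clones (0.36) and lower in cumulus clones (-0.63), and it was no longer called in male (0.32) or female Purkinje clones (-0.06). Its paralog Rpl22l1 was not called in any of the 6 comparisons on the 75th percentile scale, and was called lower in male CA1 (-0.88), Sertoli (-1.04) and cumulus clones after quantile normalization. In cumulus clones Rpl22l1 read 3.94, 3.35 and 3.14 against 3.88, 5.37 and 4.91, a difference of -1.25 (adjusted p = 0.05183) that was -1.32 after quantile normalization (adjusted p = 0.01634). Rps27l, a p53-induced paralog of Rps27, was higher in male Purkinje clones (0.55, adjusted p = 0.0162) but differed by 0.06 there after quantile normalization (adjusted p = 0.7953). Rps27 was higher in CA1 clones of both sexes, after quantile normalization in males only. Rpl36al, the autosomal copy of Rpl36a, ran from 0.52 to 0.82 over the 6 comparisons and was not called. Rpl7 was higher in both Purkinje groups, by 0.52 and 0.83, but differed by -0.02 and 0.12 after quantile normalization and was not called. Rpl7l1 ran from -0.43 to 0.07 and was not called. The paralogs Rpl39l and Rps4l lay outside the name rule and are given by probe, without a test. The brighter and dimmer Rpl39l probes differed by 1.28 and 1.62 in male CA1, -0.65 and -0.72 in Sertoli and -1.85 and -1.69 in cumulus clones. They gave 0.70 and 0.22 in male Purkinje, 1.05 and 0.15 in female Purkinje and 0.12 and -0.01 in female CA1 clones. The Rps4l probe ran from -0.51 to 0.10. Near-identical pseudogene or paralog transcripts may share a probe, and sequences of the probes were not used here.

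Members with known roles outside the ribosome were described by the same values. Rpl5 differed by 0.47 (adjusted p = 0.03745) and Rpl11 by 0.62 (adjusted p = 0.007677) in male Purkinje clones. Rps6, the target of S6 kinase, was higher in male (0.50, adjusted p = 0.032) and female Purkinje clones (0.60, adjusted p = 0.04161). After quantile normalization Rpl5, Rpl11 and Rps6 lay between -0.06 and 0.08 in male Purkinje clones and were not called. Rpl26 and Rpl38, which are linked to translation of p53 and of Hox messages, were not called on the 75th percentile scale. After quantile normalization Rpl26 was called in male CA1 clones (0.46, adjusted p = 0.03537) and in cumulus clones (-0.82, adjusted p = 0.01984).

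Of 19 translation factors and partners whose messages carry TOP tracts, 5 were higher and 0 lower in male Purkinje, 0 and 7 in male CA1, 2 and 5 in Sertoli, 7 and 0 in female Purkinje, 1 and 2 in female CA1 and 0 and 1 in cumulus clones. The shares of all genes are those given above for each comparison, 18.3% higher in male Purkinje, 13.3% lower in male CA1, 10.8% lower in Sertoli and 13.0% higher in female Purkinje clones among them. After quantile normalization the counts were 2 higher and 5 lower in male Purkinje, 0 and 9 in male CA1, 1 and 10 in Sertoli, 1 and 1 in female Purkinje, 0 and 5 in female CA1 and 0 and 3 in cumulus clones. In male Purkinje clones the balance therefore turned with the scaling, with Eef1b2, Eef1d, Eef1g, Eif3f and Eif3k the 5 lower. The medians were 0.17, -0.25, -0.30, 0.30, -0.24 and -0.03 on the 75th percentile scale, in the same order of comparisons, and -0.28, -0.28, -0.38, -0.24, -0.37 and -0.05 after quantile normalization. Eef1a1, which brings aminoacyl-tRNA to the ribosome, differed by 0.80 in male Purkinje (adjusted p = 0.006794), -0.84 in male CA1 (adjusted p = 0.003838), -0.89 in Sertoli (adjusted p = 0.003265) and 0.95 in female Purkinje clones (adjusted p = 0.01151). After quantile normalization its falls in male CA1 (-0.58) and Sertoli clones (-0.56) were still called, and its rises (0.16 and 0.19) were not. Tpt1, a growth-linked TOP message, fell in female CA1 (-0.77, adjusted p = 0.0139) and cumulus clones (-0.96, adjusted p = 0.01214) under both scalings.

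Of 57 genes of rRNA synthesis and ribosome assembly, 11 were higher and 16 lower in male Purkinje, 5 and 18 in male CA1, 3 and 15 in Sertoli, 3 and 8 in female Purkinje, 1 and 6 in female CA1 and 0 and 3 in cumulus clones. As shares, the higher ones came to 19.3%, 8.8%, 5.3%, 5.3%, 1.8% and 0.0%, against 18.3%, 17.7%, 15.0%, 13.0%, 8.41% and 1.95% of all genes. The lower ones came to 28.1%, 31.6%, 26.3% and 14.0% in male Purkinje, male CA1, Sertoli and female Purkinje clones, against 10.3%, 13.3%, 10.8% and 6.67%. In female CA1 clones the 6 of 57 compare with 4.88% of all genes, and in cumulus clones 5.3% were lower against 3.36%. After quantile normalization 5 were higher and 20 lower in male Purkinje, 2 and 22 in male CA1, 2 and 18 in Sertoli, 1 and 13 in female Purkinje, 0 and 13 in female CA1 and 0 and 5 in cumulus clones. Ncl, the nucleolar protein nucleolin, fell in male Purkinje (-0.57), male CA1 (-0.99), Sertoli (-0.87) and female CA1 clones (-1.63, adjusted p = 7.892e-05) under both scalings. Gnl3, the nucleolar GTPase nucleostemin, fell in male CA1 (-1.37, adjusted p = 0.0001441) and Sertoli clones (-0.81, adjusted p = 0.01779). Myc, a transcription factor that drives ribosome synthesis, fell in male Purkinje (-2.28, adjusted p = 0.001899), male CA1 (-3.09, adjusted p = 5.619e-05), Sertoli (-2.38, adjusted p = 0.001427) and female Purkinje clones (-2.47, adjusted p = 0.00745). Npm1, nucleophosmin, was higher in male Purkinje (0.86, adjusted p = 0.01525) and lower in male CA1 clones (-0.90, adjusted p = 0.01024). After quantile normalization the fall of Npm1 was still called and its rise was not (0.34, adjusted p = 0.3083), and the falls of Gnl3 and Myc were called in those groups too.

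Single blastocysts varied in their ribosomal protein levels within groups. The median SD over the members was 0.33 among male IVF blastocysts, 0.27 in male Purkinje, 0.17 in male CA1 and 0.24 in Sertoli clones, against 0.47, 0.40, 0.29 and 0.32 over all genes. Rps15 (SD 1.11), Rpl21 (SD 0.94) and Rpl29 (SD 0.85) varied most among male IVF blastocysts. Rpl10, Rpl10a, Rpl29, Rps10 and Rpsa, singled out after their values were seen, had their highest male IVF values in replicates 1 and 6, where Rpl10a read 6.21 and 6.24 against 4.41 to 5.85 in the other 5.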

How the data were processed

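The deposited scanner files gave spot intensity on a linear scale, and the processed signal used here was already corrected for background by Agilent's software, as the columns show per the file headers. Agilent Feature Extraction 10.5.1 is named in the submitters' processing notes. The authors' deposited value table holds log2 values centred on 0 per gene within each sex (100.0% of genes), an inference from the values, with column medians from -0.59 to 0.77, and served as an alternative only. Its scale stays unknown, with a correlation of 0.63 to 0.86 per array with the values recomputed here.

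Processed signals were divided by each array's 75th percentile, floored at 0.0929 of it (-3.43 on the log2 scale) and log2 transformed. This floor was chosen after seeing the signals and held 19.9% of the values of the genes tested. Control spots and spots marked as outliers were left out. A probe was kept if more than 50% of a group's arrays had it well above background and at least 3 arrays had it above the floor. Of 135 member probes, 113 carried an accession that RefSeq lists. Group means of all 33 arrays were fitted in R 4.3.3 with limma 3.58.1 (lmFit, eBayes), with Benjamini-Hochberg adjustment over 15794 genes. The fit was tested on simulated data. The files held no mean signal for 20 arrays, so the normexp alternative (offset 50) used the median spot and background signals. In all, 14 alternatives and 33 fits with 1 array left out were run.

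The members and gene lists were chosen with earlier results of these data known. Named were X-linked members, paralogs, members with known roles, and the members with the largest called changes (4 each way against IVF, 3 between clones). The groups share replicate numbers in the labels. Deviations of arrays with the same number in different groups correlated at a median r of -0.01 over 99 pairs (-0.24 to 0.31), so the numbers were not taken to pair the samples. No arrays were identical, and the highest correlation within a group was 0.9821. The labels say that each array held RNA of 1 blastocyst but give no number of donors or cloning sessions, and the p-values reflect only how these arrays vary, part of which may be technical. The number of arrays limits the precision. Promoters were matched by symbol for 60 of 81 members.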

Additional observations from a re-analysis of the deposited data

Results flagged for a closer look

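Rpl35a, a large-subunit protein, lay at the floor of -3.43 on male CA1 replicate 1, against 5.85 to 6.32 on the other 3 arrays, far outside the group. Its difference from IVF was -2.26 (adjusted p = 0.08538), and the second probe of the same mRNA gave -0.03. Rps27a read 8.20 in male IVF replicate 4, against 7.46 to 7.75 in the other 6. Rpl21 read -1.60 in male Purkinje replicate 1, against -1.13 to -1.08 in the other 3. These 3 stood out by the gap of a single array from its group, and over all member genes and groups of 4 to 7 arrays 23 of 474 sets of values did so (4.9%), where chance gives about 1 in 20.

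The change of Rpl28 in CA1 clones differed between the sexes by -1.13, female minus male (SE 0.23, adjusted p = 0.008771), in a direct test, and by -1.29 after quantile normalization (adjusted p = 0.001517).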

How the results depend on the processing

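Counts below are members higher and lower than IVF on the 75th percentile scale and under 1 changed setting at a time. The share of all genes called was counted for the 75th percentile and quantile scalings only. Genes tested numbered 10724 under normexp and 27646 with no filter on dim probes. Counts under the other settings and with arrays left out therefore do not set the members apart from other genes. Of the 31 and 31 higher calls in male and female Purkinje clones, 0 and 0 held under every setting, and 19 and 19 held with any 1 array left out. Of 11 lower calls in male CA1 and 19 in Sertoli clones, 2 and 2 held under every setting. Centring on the members' mean was not among the settings counted for this. The causes were not tested.

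Quantile normalization gave 5 and 17 in male Purkinje (median -0.12), 15 higher in male CA1, 6 higher in Sertoli, 3 and 1 in female Purkinje (median -0.05), 5 and 5 in female CA1, and 16 lower in cumulus clones. Scaling to the array median, which moved the median of all genes to -0.13 in male and -0.32 in female Purkinje clones and to -0.20 between the IVF sexes, gave 8 and 14 in male Purkinje (median -0.00096), 1 and 23 in male CA1, 0 and 30 in Sertoli, 2 and 5 in female Purkinje (median -0.08), 0 and 5 in female CA1, and 1 lower in cumulus clones (median -0.25), and turned the IVF sex difference to -0.07. Normexp gave 0 and 10 in male Purkinje (median -0.20), 3 and 4 in male CA1, 0 and 3 in Sertoli, 0 higher in female Purkinje (median 0.05), 0 and 0 in female CA1 (median -0.23), and 0 lower in cumulus clones. The authors' value table gave 3 lower in male Purkinje, 10 lower in Sertoli, 0 higher in female CA1 and 1 lower in cumulus clones.

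Without the Purkinje arrays under 500, male Purkinje replicates 1 and 2 and female replicate 1 were left. There were then 6 and 1 in male Purkinje and 5 lower in female CA1 clones, and the median in female Purkinje clones was 0.36. With each array centred on the members' mean, an alternative chosen after seeing the data, there were 18 and 13 in male Purkinje, 17 higher in male CA1, 11 and 10 in Sertoli, 9 and 3 in female Purkinje, 2 and 5 in female CA1, and 1 and 2 in cumulus clones. Averaging a gene's probes gave 2 higher in Sertoli and 2 higher in female CA1 clones, and reversed Rps13 in female Purkinje (-0.19) and Rps24 in cumulus clones (0.04). Fitting arrays of the same sex gave 0 higher in female CA1 clones, no filter on dim probes gave 3 lower in cumulus clones, and the slide as a random block (correlation 0.03) gave 2 lower in cumulus clones. The replicate block gave 0 higher in Sertoli and 2 higher in female CA1 clones.

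With any 1 array left out, members higher ranged from 20 to 33 in male Purkinje, 4 to 10 in male CA1, 0 to 1 in Sertoli, 20 to 34 in female Purkinje and 0 to 1 in female CA1 clones, and from 0 to 1 between male and female IVF. Members lower ranged from 2 to 9 in male Purkinje, 7 to 12 in male CA1, 11 to 27 in Sertoli, 1 to 4 in female CA1 and 0 to 3 in cumulus clones.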
